A study of Saccharomyces cerevisiae with 40 samples.

Results

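A set of 90 probe sets, which report 89 genes of the budding yeast Saccharomyces cerevisiae, had lower signal with NMD2 induced than in cells without it at 20 min, and a larger such difference at 60 min. The set came out of 9335 probe sets, of which 6504 carried a single gene symbol and 5639 of these had a mean log2(signal + 16) of at least 5 over all 40 arrays. The difference between the strains was taken at each time as the mean of GAL-NMD2 minus the mean of nmd2D on that log2 scale. A member had a difference of -1 or less at 60 min, -0.5 or less at 20 min and within 0.4 of 0 at 0 min. These thresholds were met by 128 probe sets, and 38 were left out by name, among them NMD4, EBS1, PPR1 and CPA1. Also left out were all whose symbol is itself a suffixed name, and symbols of 15 families such as EST, DAL, COS, PAU and AAD. Genes with a suffixed systematic name but another symbol, such as HTL1, could stay in. The members were thus chosen by the strain differences at 0, 20 and 60 min, which are given as description only. The arrays at 10 and 40 min entered the level filter but no threshold, and the tests rest on them.

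The study followed RNA abundance on 40 Affymetrix yeast arrays over an hour of galactose induction, with 4 biological replicates in each of 10 groups. In the GAL-NMD2 strain, the HFY1400 host with its NMD2 gene disrupted by HIS3 carried a plasmid with NMD2 behind the galactose-inducible GAL1 promoter. In the nmd2D strain the same host, with the same nmd2::HIS3 disruption, carried the empty URA3 vector, so both strains lack chromosomal NMD2 and differ in the plasmid. Both were sampled at 0, 10, 20, 40 and 60 min and grown at 30 °C without uracil; the series design has raffinose medium to which galactose was added, while the samples' own growth protocol speaks of galactose. The model is thus 1 disrupted host strain in which the induced gene copy sits on a plasmid.

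Nonsense-mediated mRNA decay (NMD) is a translation-dependent pathway that degrades mRNAs on which ribosomes stop too early. The helicase Upf1, which NAM7 encodes, acts with Nmd2, also called Upf2, and with Upf3 at such stops, and in yeast the mRNA is then mostly decapped and degraded from its 5′ end. Apart from mRNAs with nonsense mutations, known yeast substrates include unspliced pre-mRNAs that reach the cytoplasm, mRNAs with upstream reading frames, transcripts of pseudogenes, mRNAs with unusually long 3′ untranslated regions and mRNAs whose start codon is skipped. Each array measured RNA of a whole culture, so fewer cells with an RNA and less of it per cell cannot be told apart, and synthesis and decay were not measured separately.

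The strains and arrays were checked first. NMD2 signal averaged 1038 ± 177, 1304 ± 208, 1628 ± 213, 1507 ± 289 and 1654 ± 212 at 0, 10, 20, 40 and 60 min in cells with the GAL1-NMD2 plasmid, against 895 ± 34.9, 877 ± 62.8, 929 ± 147.0, 929 ± 6.84 and 889 ± 132 in those with the empty vector (SD, n = 4 each). Since its probe set gave signal in cells with the disruption alone, it checks that disruption only in part; at 40 min it was higher in GAL-NMD2 (log2 0.67, SE 0.15, limma adjusted p = 0.00167). URA3, the marker that the labels name on the empty vector, averaged 317 ± 119, 248 ± 165, 241 ± 41.7, 223 ± 113 and 319 ± 105 at the same times in GAL-NMD2, against 1305 ± 969, 1339 ± 1051, 1187 ± 762, 1557 ± 1301 and 1502 ± 939.7 in nmd2D (SD, n = 4 each). Its groups did not overlap at any time, 0 min included; its part in the results was not tested. HIS3, the marker of the disruption, overlapped between the strains at every time, and by 1 of its 2 probe sets it read 1189 ± 607 in GAL-NMD2 cells, against 1712 ± 522 in nmd2D cells, at 40 min (SD, n = 4 each). GAL1, which galactose induces, averaged 108 ± 48.5 at 0 min and 3375 ± 447 at 40 min in GAL-NMD2 cells, against 85.9 ± 14.2 and 3100 ± 596 in nmd2D cells (SD, n = 4 each). The median signal of an array lay between 61.3 and 86.0 and the 3′ to 5′ ratio of the actin control probe sets between 1.38 and 2.95 on all 40 arrays. At 40 min the median signal was 65.4 ± 1.31 in GAL-NMD2 and 75.5 ± 2.69 in nmd2D, and the actin ratio 1.96 ± 0.52 and 1.71 ± 0.37 (SD, n = 4 each). Results at 40 min are therefore also given with each array centred on its median. One array stood apart within its group. Replicate 2 of GAL-NMD2 at 20 min had a median signal of 84.4, against 68, 64.9 and 63.8 in replicates 1, 3 and 4. That array entered the choice of members. In the tests below it entered the level filter and the estimate of spread, which come from all 40 arrays, but no group mean that is compared.

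Over the time course the median member went down in GAL-NMD2 and stayed level in nmd2D. At 0, 10, 20, 40 and 60 min the median strain difference of the 90 probe sets was -0.17, -0.09, -0.65, -1.19 and -1.36. Over all 5639 single-symbol probe sets at the same level the medians were -0.05, 0.02, -0.02, 0.00 and -0.04. At 20 min a member had reached a median of 49.8% of its difference at 60 min, with a range of 27.1% to 91.1%, and at 40 min a median of 86.1%, with a range of 47.6% to 121%. By that share PMA2 (91.1%), YIR020C (89.9%) and FLO11 (81.1%) stood highest at 20 min, and PPT2 (27.1%), PET18 (27.7%) and ODC2 (29.3%) lowest. The share at 20 min rests on values that chose the members. It does not subtract the difference at 0 min, which was -0.36 in PMA2, -0.15 in YIR020C and 0.09 in FLO11. Which genes fell first was therefore not measured by it. In 17 of 90 probe sets the difference at 40 min was at least as large as that at 60 min. RRT13 shows the course on single means, with signals of 463 ± 53.9, 474 ± 45.8, 238 ± 47.5, 117 ± 16.2 and 102 ± 10.7 at 0, 10, 20, 40 and 60 min in GAL-NMD2 cells, against 452 ± 40, 512 ± 55, 471 ± 13.5, 468 ± 33.7 and 478 ± 28.6 in nmd2D cells (SD, n = 4 each). Its strains had similar means up to 10 min and were apart by the 20 min arrays. GTT2, a glutathione transferase, had 367 ± 62.9, 348 ± 29.7, 231 ± 46.8, 133 ± 25.1 and 113 ± 19.9 in GAL-NMD2 cells, against 392 ± 66, 341 ± 25.9, 358 ± 33.2, 410.0 ± 35.2 and 423 ± 44.9 in nmd2D cells at the same times (SD, n = 4 each). Summed up per array as the median deviation of the members from their nmd2D mean, the level was -0.14 ± 0.13 at 10 min and -1.17 ± 0.10 at 40 min in GAL-NMD2, against -0.01 ± 0.09 and -0.01 ± 0.10 in nmd2D (log2, SD, n = 4 each).

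**Figure D1:**
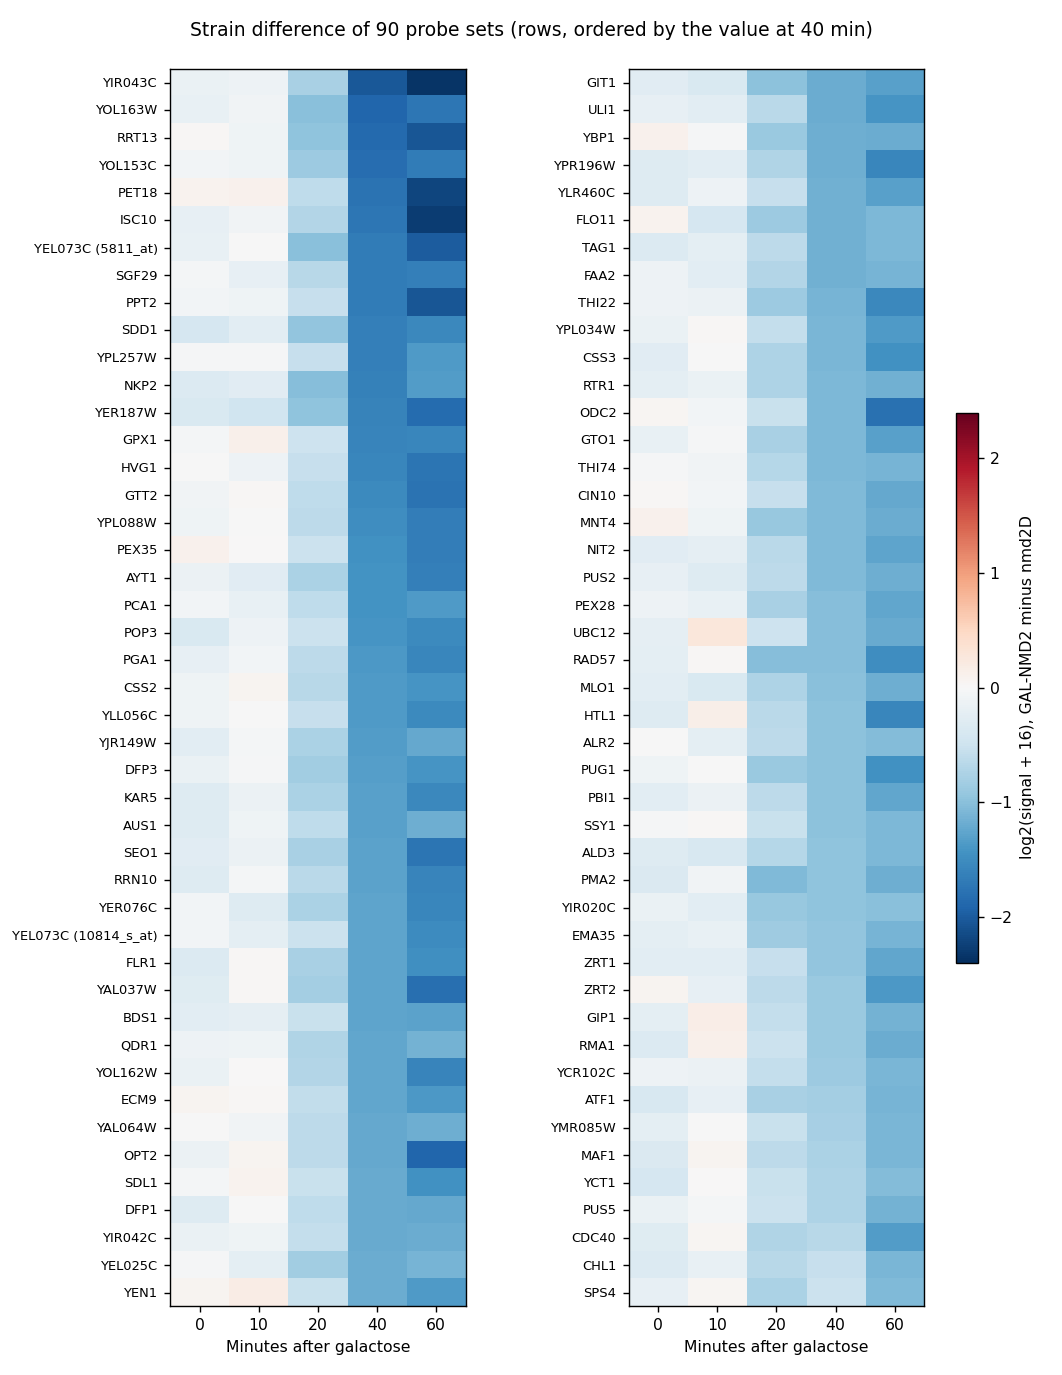
Strain difference of each of the 90 probe sets at 0, 10, 20, 40 and 60 min after galactose, as mean log2(signal + 16) of 4 GAL-NMD2 arrays minus that of 4 nmd2D arrays, with probe sets in rows ordered by the value at 40 min. The columns at 0 and 10 min are near 0 and those at 20, 40 and 60 min are below 0 in every row; the values at 0, 20 and 60 min chose the rows.

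**Figure D2:**
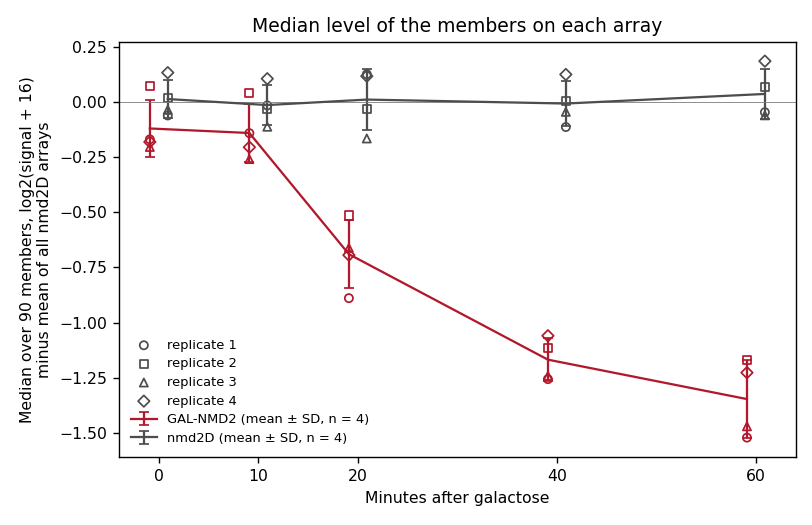
Median over the 90 members on each array, as log2(signal + 16) minus the mean of all nmd2D arrays, against minutes after galactose. Symbols are the 4 replicates, lines the group means and bars the SD (n = 4). GAL-NMD2 arrays lie at -1.17 ± 0.10 at 40 min, and nmd2D arrays stay near 0 at all times.

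Whether the strains differed in these genes at a time that had not chosen them was tested with the group means of the 8 arrays at 40 min, with the spread estimated over all 40 arrays. There 74 of the 90 probe sets were called lower in GAL-NMD2 and none higher (limma on all 7420 probe sets past the 20th percentile of mean level, Benjamini-Hochberg adjusted p under 0.05), against 7.96% of all probe sets tested called lower and 0.593% called higher. All 90 members passed that filter. With the spread taken from the 8 arrays at 40 min alone, 73 members were called lower and none higher, against 5.66% and 0.148% of all probe sets tested. The median log2 difference of the members was -1.19, or 2.28-fold lower on the scale of log2(signal + 16), with a range of -2.04 to -0.51, while the median over all 7420 was -0.00. A difference of 2-fold or more was reached by 68 of 90 members, against 3.77% of the probe sets tested. In 76 of 90 members every GAL-NMD2 array read below every nmd2D array, against 10.3% of the probe sets tested. Taken by replicate number, 88 of 90 members were lower in 4 of 4 numbers, against 22.7%, and ODC2 and CHL1 were lower in 3 of 4.

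With the replicate number as a block, 88 of 90 members were called lower, and the shares of all probe sets called lower and higher were 15.8% and 3.27%. The 2 members still not called were CHL1, a helicase of sister chromatid cohesion, and SPS4, a gene expressed in sporulation (limma adjusted p = 0.0642 and 0.103). Centring each array on its median raised the median of all probe sets by 0.17 and left 69 members called, with a median of -1.02; the split of all calls was then 367 lower and 226 higher, in place of 591 and 44. Quantile normalization gave 68 members, with 440 lower and 100 higher in all. The 40 min samples may come from the same cultures as the other times, so these tests are not independent of the cultures that chose the members.

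**Figure D3:**
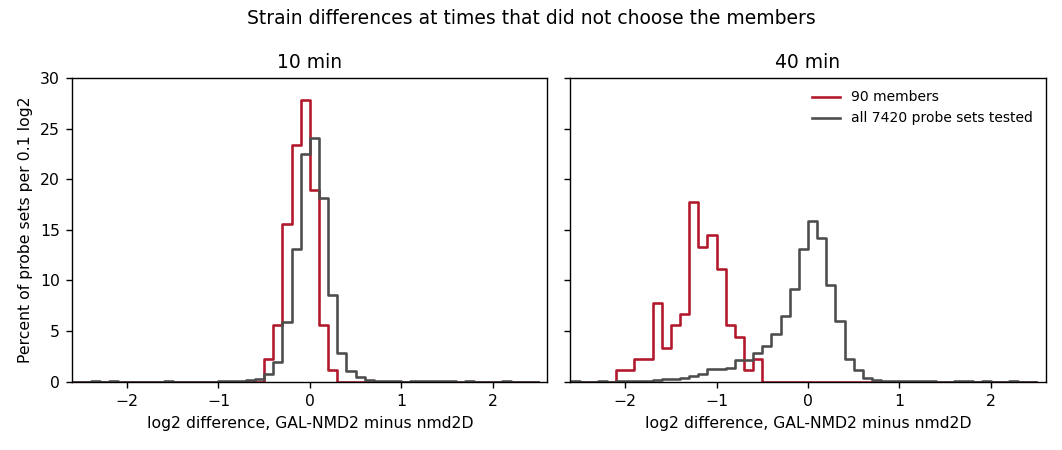
Distribution of the log2 strain difference (GAL-NMD2 minus nmd2D) at 10 min (left) and 40 min (right), for the 90 members and for all 7420 probe sets tested, as percent of probe sets per 0.1 log2. At 10 min the medians are -0.09 and 0.02, and at 40 min the members lie between -2.04 and -0.51.

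Members were sorted by role for this description only. Roles were not counted over all genes, so the sizes of these groups have no background beside them. Transport proteins formed the largest named group, with 20 members, of which 14 were lower in GAL-NMD2 at 40 min (median log2 -1.13, range -1.91 to -0.74) and 20 with the replicate block. YOL163W and its neighbour YOL162W resemble members of a family of plasma membrane permeases. YOL163W read 16.4, 21.8, 6.4 and 42.7 in GAL-NMD2 cells, against 96.5, 148, 81.3 and 162 in nmd2D cells at 40 min. The groups did not overlap, with replicate 3 the lowest in both (log2 -1.91, SE 0.31, limma adjusted p = 4.34e-05). YOL162W was lower too (log2 -1.24). PCA1, a P-type ATPase that exports cadmium, read 88, 126, 89.8 and 140.1 in GAL-NMD2 cells, against 228, 342, 301 and 442 in nmd2D cells, and each GAL-NMD2 array was below each nmd2D array (log2 -1.43, SE 0.22, limma adjusted p = 2.47e-05). HVG1, which resembles a Golgi GDP-mannose transporter, read 88.8, 147, 118 and 166 in GAL-NMD2 cells, against 341, 417, 324 and 579 in nmd2D cells, with a similar gap in each replicate number (log2 -1.56, SE 0.29, limma adjusted p = 0.000252). ZRT2, the low-affinity zinc transporter of the plasma membrane, read 473, 628, 407 and 647 in GAL-NMD2 cells, against 1152, 1001, 1017 and 839 in nmd2D cells; its groups did not overlap, and the difference was under 2-fold (log2 -0.89, SE 0.20, limma adjusted p = 0.00191).

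Of the other transport genes called lower at 40 min, FLR1 and QDR1 encode plasma membrane multidrug transporters (log2 -1.27 and -1.25), GIT1 the glycerophosphoinositol permease (-1.18), ALR2 a probable magnesium transporter (-0.99), SSY1 the amino acid sensor of the plasma membrane (-0.98) and YCT1 a cysteine transporter (-0.74). SEO1, CIN10 and THI74, all putative transporters, had -1.29, -1.07 and -1.07. The 6 that were not called without the block were AUS1, an ABC transporter of sterol uptake (-1.30), OPT2, an oligopeptide transporter (-1.23), ODC2, a mitochondrial carrier of oxodicarboxylates (-1.08), PUG1, a heme and porphyrin transporter (-0.99), PMA2, the minor plasma membrane proton pump (-0.96), and ZRT1, the high-affinity zinc transporter (-0.94). ODC2 is the clearest case of spread between replicates: it read 327, 295, 324 and 314 in GAL-NMD2 cells, against 281, 1023, 1132 and 666 in nmd2D cells at 40 min. In replicate 1 the strains were close and in replicates 2 to 4 GAL-NMD2 was far below nmd2D (log2 -1.08, SE 0.43, limma adjusted p = 0.124), and with the replicate block the difference was called (log2 -1.08, SE 0.21, limma adjusted p = 0.000214).

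Metabolic enzymes and related proteins made up 16 members, of which 15 were lower at 40 min (median log2 -1.18, range -1.68 to -0.81) and 16 with the block. PPT2 attaches the phosphopantetheine arm to the mitochondrial acyl carrier protein. It read 94.4, 90.1, 207 and 172 in GAL-NMD2 cells, against 478, 412, 543 and 422 in nmd2D cells at 40 min. No arrays overlapped, with replicates 1 and 2 the lowest in GAL-NMD2 (log2 -1.68, SE 0.17, limma adjusted p = 8.51e-09). Genes of glutathione chemistry were among them. GTT2 read 101, 139.5, 132 and 161 in GAL-NMD2 cells, against 399.8, 367, 424 and 449.7 in nmd2D cells, without overlap (log2 -1.52, SE 0.15, limma adjusted p = 6.44e-09). GPX1, a glutathione peroxidase, read 272, 119.8, 204 and 304 in GAL-NMD2 cells, against 1185, 422, 535 and 745 in nmd2D cells, where replicate 1 was the highest in nmd2D and replicate 2 the lowest in both strains (log2 -1.58, SE 0.39, limma adjusted p = 0.00545). GTO1, an omega-class glutathione transferase, and NIT2, a nitrilase-family amidase, had log2 differences of -1.08 and -1.05, and both were called lower.

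PGA1, an essential protein of the second mannose transfer in GPI anchor synthesis, was the 1 member that also stood in a list of mRNAs known as NMD substrates. Others of that list, such as CPA1, PPR1, NMD4, EBS1 and the EST genes, had been left out by name. They could not be members, so this overlap was limited by the rule. PGA1 read 48.2, 75.7, 46.3 and 104 in GAL-NMD2 cells, against 206, 234, 114 and 259.8 in nmd2D cells at 40 min. Each GAL-NMD2 array lay below each nmd2D array (log2 -1.38, SE 0.32, limma adjusted p = 0.00322). ALD3, a cytosolic aldehyde dehydrogenase, read 32.4, 24.1, 36.2 and 50.7 in GAL-NMD2 cells, against 95.4, 69.7, 102 and 71.3 in nmd2D cells (log2 -0.97, SE 0.26, limma adjusted p = 0.0136); its groups did not overlap, and its course within the strains is given below. The remaining enzymes called lower were AYT1 and ATF1, both acetyltransferases (log2 -1.44 and -0.81), FAA2, a medium-chain fatty acyl-CoA synthetase (-1.14), THI22, which resembles thiamine biosynthesis kinases (-1.12), MNT4, a putative mannosyltransferase (-1.06), RMA1, a putative folylpolyglutamate synthetase (-0.88), YPL088W, a putative aryl alcohol dehydrogenase (-1.49), and the pseudogene SDL1. BDS1, a sulfatase, had -1.26 and was called only with the block.

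The gene table annotates 3 of the 89 member genes as pseudogenes, and all 3 were called lower at 40 min. YIR043C read 26.3, 75.8, 92.9 and 92.4 in GAL-NMD2 cells, against 259, 316, 456 and 287 in nmd2D cells. The lowest GAL-NMD2 array was replicate 1, and no array overlapped (log2 -2.04, SE 0.34, limma adjusted p = 6.80e-05), the largest difference of any member at that time. YOL153C, a disrupted relative of a carboxypeptidase gene, read 33.9, 25.8, 26.7 and 70.6 in GAL-NMD2 cells, against 292, 109, 165 and 163 in nmd2D cells (log2 -1.83, SE 0.34, limma adjusted p = 0.000259). SDL1, in which the frame of a serine dehydratase-like gene is broken, read 18.5, 34.5, 34.8 and 43.4 in GAL-NMD2 cells, against 92.8, 81.9, 86.2 and 124 in nmd2D cells (log2 -1.21, SE 0.18, limma adjusted p = 1.52e-05). In all 3, every GAL-NMD2 array read below every nmd2D array. Pseudogenes were thus 3.37% of the member genes and 8 of 5230 genes, or 0.153%, at the level of the rule; transcripts of pseudogenes are known NMD substrates, and the count is too small for more than this description.

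Among proteins of the nucleus and of RNA processing, 8 of 13 members were lower at 40 min (median log2 -1.05, range -1.68 to -0.54), and 12 of 13 with the block. RRN10, a subunit of the upstream activating factor of RNA polymerase I, read 25.9, 41.4, 29.7 and 30.1 in GAL-NMD2 cells, against 87.4, 114, 116 and 86 in nmd2D cells, without overlap (log2 -1.29, SE 0.20, limma adjusted p = 1.63e-05). YEN1, a Holliday junction resolvase, read 52.3, 89.5, 91.8 and 82.5 in GAL-NMD2 cells, against 228, 173, 209 and 187 in nmd2D cells, also without overlap (log2 -1.20, SE 0.17, limma adjusted p = 4.39e-06). MAF1, the repressor of RNA polymerase III, read 80.4, 82.7, 99.6 and 99.6 in GAL-NMD2 cells, against 127, 184, 201 and 152 in nmd2D cells. Its groups did not overlap, and its difference was under 2-fold (log2 -0.76, SE 0.16, limma adjusted p = 0.00137). RAD57, a recombination protein (-1.02), HTL1, a subunit of the RSC remodelling complex (-0.99), RTR1, a phosphatase of the RNA polymerase II tail (-1.09), CDC40, a splicing factor (-0.66), and PUS2, a pseudouridine synthase (-1.05), were the others called lower.

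SGF29, a subunit of the SAGA histone acetyltransferase complex, had the largest difference of the members not called. It read 54.2, 20.1, 6 and 47.3 in GAL-NMD2 cells, against 286, 128, 24.9 and 195 in nmd2D cells at 40 min. In each replicate number GAL-NMD2 was the lower strain, while the numbers differed among themselves, with replicate 1 the highest and replicate 3 the lowest in both strains (log2 -1.68, SE 0.73, limma adjusted p = 0.187). With the replicate block it was called (log2 -1.68, SE 0.19, limma adjusted p = 2.58e-08). The same held for NKP2 of the kinetochore (log2 -1.61), POP3 of RNase P and RNase MRP (-1.41) and the mitochondrial pseudouridine synthase PUS5 (-0.74), which were called with the block only. The SE of the 16 members that were not called had a median of 0.40, against 0.20 in the 74 that were, and the medians of their log2 differences were -0.98 and -1.20.

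Sporulation and mating gave 4 members, of which 3 were lower at 40 min. ISC10, which is needed for spore formation, read 54.7, 50.5, 74.7 and 44.8 in GAL-NMD2 cells, against 196, 187, 301 and 219 in nmd2D cells, with no overlap and replicate 3 the highest in both strains (log2 -1.74, SE 0.23, limma adjusted p = 2.17e-06). KAR5, which acts in the fusion of nuclei after mating, read 63.6, 41.3, 60.7 and 58.8 in GAL-NMD2 cells, against 186, 137, 165 and 158 in nmd2D cells, again with no overlap (log2 -1.31, SE 0.23, limma adjusted p = 0.000137). GIP1, a meiotic subunit of the Glc7 phosphatase, had a log2 difference of -0.89. SPS4 read 104, 20, 20.3 and 13.3 in GAL-NMD2 cells, against 118, 41.4, 51.8 and 20 in nmd2D cells. Replicate 1 was the highest in both strains, the groups overlapped, and the difference was not called (log2 -0.51, SE 0.62, limma adjusted p = 0.793).

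The other named members numbered 18, of which 17 were lower at 40 min (median log2 -1.18, range -1.87 to -0.95) and 18 with the block. RRT13 read 116, 97.7, 119 and 137 in GAL-NMD2 cells, against 500.5, 443, 435 and 494 in nmd2D cells and had the smallest adjusted p of the members (log2 -1.87, SE 0.13, limma adjusted p = 1.01e-12). PET18 read 26, 39, 48.3 and 39.6 in GAL-NMD2 cells, against 135, 149, 202 and 186 in nmd2D cells (log2 -1.76, SE 0.17, limma adjusted p = 6.44e-09). PEX35, a peroxisomal membrane protein, read 39.2, 54.3, 41.7 and 48.4 in GAL-NMD2 cells, against 192, 161, 122 and 147 in nmd2D cells (log2 -1.46, SE 0.18, limma adjusted p = 4.23e-07). In these 3 genes the groups were far apart, with no GAL-NMD2 array near any nmd2D array. UBC12, the enzyme that conjugates the ubiquitin-like Rub1, read 36.8, 39.2, 37.5 and 65.8 in GAL-NMD2 cells, against 133, 106, 105 and 82.1 in nmd2D cells, with replicate 4 the closest pair (log2 -1.02, SE 0.20, limma adjusted p = 0.000581). PEX28 of the peroxisome (-1.02), YBP1, which binds the oxidative stress factor Yap1 (-1.17), FLO11, the flocculin of filamentous growth (-1.15), TAG1 of autophagy (-1.15) and ECM9 (-1.24) were also called lower, as were SDD1, CSS2, CSS3, DFP1, DFP3, ULI1, PBI1 and MLO1. EMA35 was called with the block only (-0.95).

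Members to which no role is given here made up the other 19 probe sets, of 18 genes, and 17 of them were lower at 40 min (median log2 -1.27, range -2.04 to -0.80). YEL073C was the only gene of the set with both of its probe sets among the members. Its gene-specific probe set read 38.9, 45.7, 35.8 and 49.2 in GAL-NMD2 cells, against 102, 246, 146 and 227 in nmd2D cells (log2 -1.68, SE 0.32, limma adjusted p = 0.000341). The other, of a kind that can share sequence with related genes, read 729.5, 906, 1065 and 798 in GAL-NMD2 cells, against 2118, 2349, 2193 and 1833 in nmd2D cells (log2 -1.27, SE 0.15, limma adjusted p = 3.64e-07). Both moved the same way with no overlap between the strains. YPL257W, YER187W, YLL056C, YJR149W, YER076C and YAL037W had log2 differences of -1.64, -1.60, -1.35, -1.34, -1.27 and -1.27, and YOL153C and YIR043C are described above. The remaining 6 called, YAL064W, YIR042C, YEL025C, YPR196W, YLR460C and YPL034W, lay between -1.23 and -1.10, and YMR085W had -0.80. The 2 not called without the block were YIR020C and YCR102C (log2 -0.96 and -0.87).

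**Figure D4:**
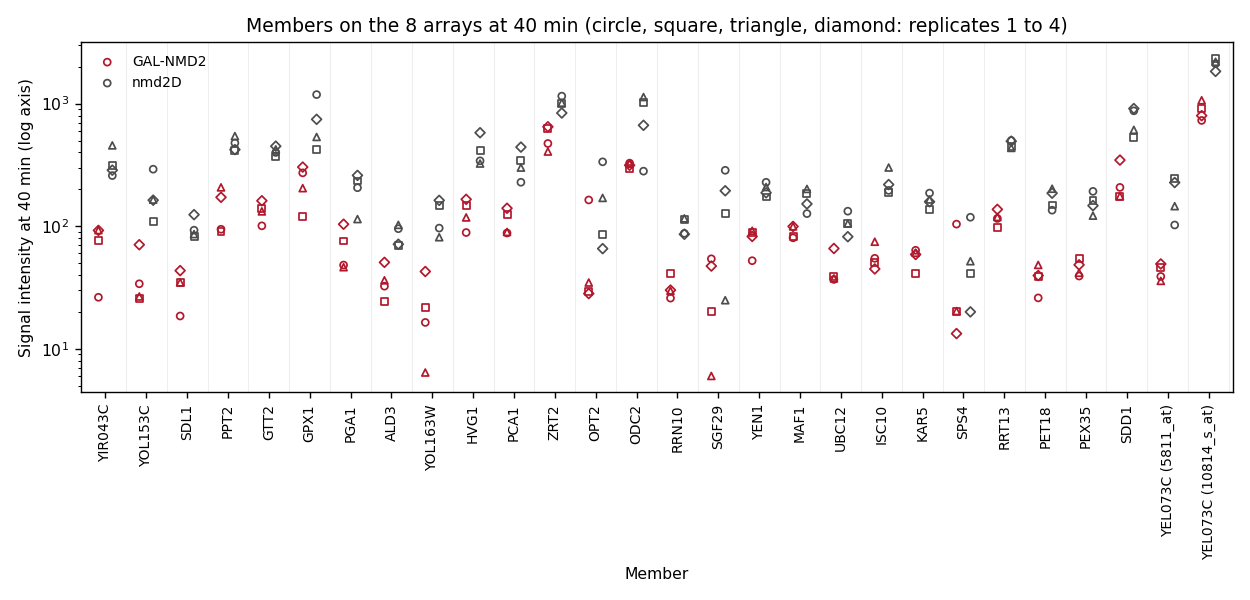
Signal intensity (log axis) of 27 genes on the 8 arrays at 40 min, with GAL-NMD2 arrays left of nmd2D arrays for each gene and symbols for replicates 1 to 4. In RRT13, PET18 and PPT2 the strains are clearly separated, while in SGF29, SPS4 and OPT2 the replicates of a strain spread as far as the strains do. In ODC2 the nmd2D replicates spread that far and the GAL-NMD2 replicates lie close together.

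At 10 min, the other time that no threshold used, the members did not yet differ detectably. No member was called in either direction by limma, none had an unadjusted p under 0.05, and 0% of all 7420 probe sets were called lower and 0.0135% higher. The 1 probe set called was that of PTC7, which is no member and is named after its value was seen (log2 2.14, SE 0.24, limma adjusted p = 9.76e-07). The median log2 difference of the members was -0.09, against 0.02 over all probe sets tested, with a range of -0.47 to 0.27. Of the members 67 of 90 were below 0, against 2568 of 5639 single-symbol probe sets at the level of the rule. At 0 min, which the rule used, 79 of 90 members were below 0, with a median of -0.17. Of the single-symbol probe sets, 3601 of 5639 were below 0 at that time, with a median of -0.05. Back at 10 min, no member had its groups apart, against 0.31% of the probe sets tested, and 11 of 90 were lower in 4 of 4 replicate numbers, against 4.81%. PPT2 read 410.0, 372, 405 and 431 in GAL-NMD2 cells, against 488, 449, 459 and 364 in nmd2D cells at 10 min and RRT13 read 489, 532, 443 and 433 in GAL-NMD2 cells, against 462, 474, 581 and 532 in nmd2D cells. Both genes had overlapping groups then. With the replicate block again no member was called and 7 had an unadjusted p under 0.05, with 3 probe sets called lower and 6 higher in all (0.0404% and 0.0809%). Leaving out replicate 2 of GAL-NMD2 gave 16 calls over all probe sets and leaving out replicate 1 gave 2, none of them a member.

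Whether the strains changed differently between 10 and 40 min was tested with the interaction, the change in GAL-NMD2 minus the change in nmd2D. It was called negative in 41 of 90 members and positive in none (limma adjusted p under 0.05), against 2.33% of all probe sets tested called negative and 0% positive. The median interaction of the members was -1.09 on the log2 scale, against -0.04 over all probe sets, and all 90 values were below 0. With the replicate block 78 members were called, against 8.37% of all probe sets. The count rested on the setting and on single arrays: 17 members were called after centring each array on its median, with 49 probe sets called in all. It was 22 after quantile normalization, with 75 in all, and 25 in a fit of only the arrays at 10 and 40 min, with 72 in all. It was 23 and 24 without replicates 2 and 3 of GAL-NMD2, with 81 probe sets in all each time. Without replicates 2 and 3 of nmd2D it was 24 and 23, with 81 and 76 in all. The median stayed between -1.13 and -1.03 in every fit that left out a replicate.

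Within GAL-NMD2, 68 of 90 members fell between 10 and 40 min and none rose (limma adjusted p under 0.05), against 8.94% of all probe sets tested that fell and 0.836% that rose. The median change was -1.07, and 89 of 90 values were below 0. PET18, for example, read 26, 39, 48.3 and 39.6 at 40 min and 178, 171, 199 and 132 at 10 min in GAL-NMD2, with no overlap (log2 -1.78, SE 0.17, limma adjusted p = 6.60e-09). YOL153C read 33.9, 25.8, 26.7 and 70.6 at 40 min and 312, 140.1, 149 and 239 at 10 min (log2 -2.03, SE 0.34, limma adjusted p = 6.72e-05), the largest change of the members. With the replicate block 85 members fell and none rose, against 17.7% and 4.93% of all probe sets. Centred on the median of each array 58 members fell, with 357 probe sets lower and 367 higher in all, in place of 663 and 62, and after quantile normalization 59 fell, with 435 lower and 144 higher. Over all probe sets the count that fell was 422, 411 and 413 without replicates 1, 2 and 3 of GAL-NMD2, and 57 to 70 members fell in the fits that left out a replicate.

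Within nmd2D no change of a member between 10 and 40 min passed the test. No member was called by limma, 3 had an unadjusted p under 0.05, and 0.027% of all probe sets were called lower and 0% higher. The median change was 0.05, against 0.01 over all probe sets, and 36 of 90 values were below 0. The 2 probe sets called were those of CTT1 and GRE2, which are no members and are named after their values were seen (log2 -1.43 and -1.32, limma adjusted p = 0.00162 and 0.00444). Neither was called without replicate 3 of nmd2D, and 1 probe set was called without replicate 2 or 4. With the replicate block 3 members were called, 1 lower and 2 higher, against 0.863% and 0.472% of all probe sets.

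Those 3 members, ALD3, SDD1 and OPT2, departed from the common course. ALD3 averaged 94.1 ± 31.5, 162 ± 53.2, 100.2 ± 39.5, 35.9 ± 11.1 and 30.8 ± 10.3 at 0, 10, 20, 40 and 60 min in GAL-NMD2 cells, against 121 ± 35.2, 217 ± 73.1, 166 ± 43.8, 84.7 ± 16.7 and 84.2 ± 28.4 in nmd2D cells (SD, n = 4 each). Its means peaked at 10 min and then came down in both strains, and further in GAL-NMD2. In nmd2D the change from 10 to 40 min was not called without the block (log2 -1.17, SE 0.26, limma adjusted p = 0.125) and was called with it (log2 -1.17, SE 0.19, limma adjusted p = 0.000445). In GAL-NMD2 it was called (log2 -1.76, SE 0.26, limma adjusted p = 1.33e-05), and the interaction was not (log2 -0.59, SE 0.37, limma adjusted p = 0.734).

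SDD1 and OPT2 did not go down with induction. SDD1 averaged 105 ± 41.3, 237 ± 75, 236 ± 44.2, 226 ± 81.5 and 267 ± 108 in GAL-NMD2 cells, against 148 ± 73.3, 309 ± 151, 494 ± 199.8, 732 ± 189 and 774 ± 114 in nmd2D cells at the same times (SD, n = 4 each). At 40 min it read 207, 176, 176 and 346 in GAL-NMD2 cells, against 874, 531, 612 and 912 in nmd2D cells, with no overlap (log2 -1.64, SE 0.34, limma adjusted p = 0.00109). Its signal climbed in nmd2D over the hour and levelled off after 10 min in GAL-NMD2. The change from 10 to 40 min in nmd2D was called with the block (log2 1.32, SE 0.22, limma adjusted p = 0.000483) and not without it (log2 1.32, SE 0.34, limma adjusted p = 0.198), as was the interaction (log2 -1.39, limma adjusted p = 0.00254 with the block and 0.161 without). OPT2 averaged 24.6 ± 31.3, 56.5 ± 79.9, 46.1 ± 62.6, 64 ± 66.5 and 92.8 ± 130.0 in GAL-NMD2 cells, against 24.4 ± 21.6, 43.6 ± 49.9, 62.3 ± 50.5, 164 ± 123 and 319 ± 286 in nmd2D cells (SD, n = 4 each), and its replicate 1 stood far above the others. At 40 min it read 164, 29.3, 34.7 and 28.2 in GAL-NMD2 cells, against 335, 86.3, 170.1 and 65.6 in nmd2D cells, so that the groups overlapped through replicate 1 and in each replicate number GAL-NMD2 was the lower strain. The strain difference (log2 -1.23, SE 0.70, limma adjusted p = 0.385) was called with the block only (log2 -1.23, SE 0.24, limma adjusted p = 0.000185), as was the rise from 10 to 40 min in nmd2D (log2 1.65, SE 0.24, limma adjusted p = 0.00013). For these 2 genes a lower signal in GAL-NMD2 than in nmd2D, not a fall, is what the rule found. From 0 to 60 min, which the rule used, 88 of 90 members had a lower mean in GAL-NMD2 at the end (median log2 change -1.19), and the exceptions were SDD1 (1.21) and OPT2 (1.08), which had 2.36 and 2.85 in nmd2D.

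**Figure D5:**
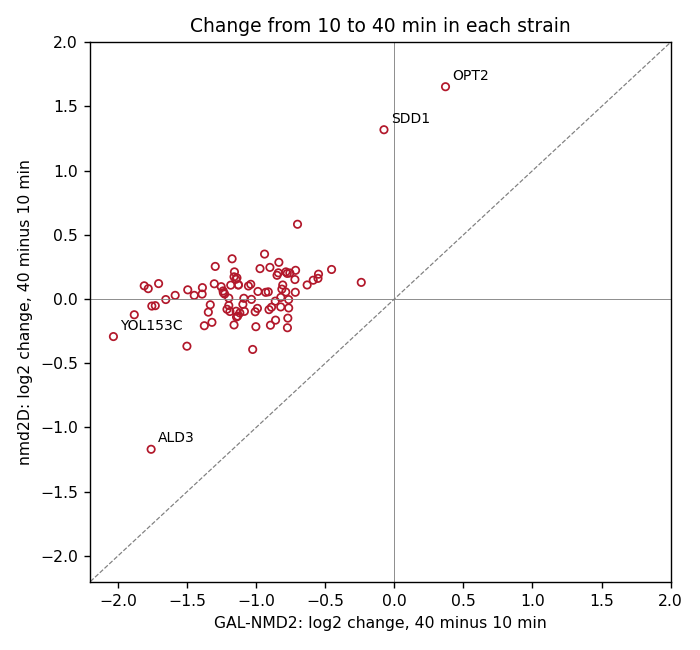
Change of each of the 90 members from 10 to 40 min on the log2(signal + 16) scale, with GAL-NMD2 on the x axis and nmd2D on the y axis; the dashed line marks equal change. Most points lie near 0 in nmd2D and around -1.07 in GAL-NMD2, while OPT2 and SDD1 lie above 1 in nmd2D and ALD3 lies low in both strains.

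Other probe sets of the same genes were compared, since 1 gene can have several on this array. For CHL1 the member probe set had a strain difference of -0.54 at 40 min, while the others had -0.71, -0.27 and 0.13. For AUS1 the member had -1.30, against -0.75, -0.43, 0.04, -0.02 and -0.06 in the others. For ZRT1 the member had -0.94, and the others -0.49, -0.45 and -0.27. SDL1 and YIR043C each had a further probe set that was lower at 40 min too (-0.80 and -0.74), as did BDS1 (-1.24) and YAL064W (-1.05). BDS1 had another 2 probe sets, with -0.43 and -0.02, and YAL064W another 1, with -0.17. Of the 90 member probe sets, 85 (94.4%) were of the plain kind, made for 1 gene, against 91.9% of single-symbol probe sets at that level; the others, such as those of AUS1 and CHL1, can share sequence with related genes.

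Features that the rule did not use were described along the genome, from gene order alone. A place within 20 genes of a chromosome end was held by 32 of 89 member genes (36.0%), against 442 of 5140 protein-coding genes and pseudogenes (8.60%) at the level of the rule. The share stood at 36.0% although COS, PAU, AAD and MAL genes, many of which lie near chromosome ends, had been left out by name. Direct neighbours on a chromosome made up 7 pairs of members, which took in 13 genes. They were RAD57 and MAF1, FLO11 and YIR020C, YIR042C and YIR043C, YLL056C and YCT1, BDS1 and YOL163W, YOL163W and YOL162W, and PMA2 and YPL034W. BDS1, YOL163W and YOL162W form a run of 3 near the end of chromosome XV. A further 5 pairs had 1 gene between them, among them PET18 and HTL1, and OPT2 and YPR196W. Such pairs were not counted over all genes, so these counts have no background beside them. UBC12, MAF1 and ECM9 are known to carry introns, and unspliced pre-mRNA is a known substrate of NMD; whether their probes read introns was not tested.

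Some of these neighbours were read array by array at 40 min. RAD57 read 89.6, 116, 132 and 144 in GAL-NMD2 cells, against 220.2, 280.2, 291 and 242 in nmd2D cells, with no overlap (log2 -1.02, SE 0.29, limma adjusted p = 0.0203), beside the values of MAF1 above. FLO11, whose product makes cells stick to each other and to surfaces, read 140.1, 190.5, 115 and 172 in GAL-NMD2 cells, against 355, 361, 262 and 479 in nmd2D cells, again with no overlap (log2 -1.15, SE 0.23, limma adjusted p = 0.000522). YIR020C next to it read 101, 182, 63 and 119.7 in GAL-NMD2 cells, against 204, 270.2, 142 and 339.6 in nmd2D cells, where GAL-NMD2 was lower in each replicate number while replicate 2 of GAL-NMD2 lay above replicate 3 of nmd2D (log2 -0.96, SE 0.34, limma adjusted p = 0.0742). YIR042C, beside the pseudogene YIR043C, read 26, 25.3, 22.7 and 22.2 in GAL-NMD2 cells, against 107, 60.7, 62.9 and 82.1 in nmd2D cells, with 4 GAL-NMD2 arrays close together (log2 -1.21, SE 0.18, limma adjusted p = 1.44e-05). YLL056C read 57.2, 74.3, 93.5 and 88.1 in GAL-NMD2 cells, against 238, 176, 231 and 249 in nmd2D cells and its neighbour YCT1 read 62.8, 67, 61.4 and 78.4 in GAL-NMD2 cells, against 131, 112, 103 and 151 in nmd2D cells. Both were apart on all arrays (log2 -1.35, SE 0.15, limma adjusted p = 4.33e-08; log2 -0.74, SE 0.20, limma adjusted p = 0.0139). BDS1, next to YOL163W, read 21.1, 96.2, 54.9 and 95.3 in GAL-NMD2 cells, against 80.5, 207, 167 and 256 in nmd2D cells, with replicate 1 the lowest in both strains (log2 -1.26, SE 0.45, limma adjusted p = 0.0803). PMA2 read 36, 109.5, 68.5 and 51.8 in GAL-NMD2 cells, against 84.3, 201, 117 and 171 in nmd2D cells. Its replicates spread widely, with replicate 2 the highest in both (log2 -0.96, SE 0.36, limma adjusted p = 0.104). YPL034W read 33.9, 64.6, 60.2 and 32.2 in GAL-NMD2 cells, against 84.8, 145, 158 and 95 in nmd2D cells, and its groups did not overlap (log2 -1.10, SE 0.33, limma adjusted p = 0.0274).

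The probe sets closest to the thresholds show how fine the borders are. YIR020C entered with -1.003 at 60 min, where EAT1 (-0.996), KSS1 (-0.991) and a second probe set of ZRT1 (-0.988) were just outside. UBC12 entered with -0.502 at 20 min, where YEL1 (-0.497), ADY3 (-0.494) and TCA17 (-0.492) were just outside. YCT1 entered with -0.399 at 0 min, and UGA3 (-0.407), MEP2 (-0.422) and YJL213W (-0.445) were left out. The rule found 41 probe sets when arrays were centred on their medians, of which 39 were among the 90, and 51 after quantile normalization, of which 50 were. Without replicate 1 of GAL-NMD2 it found 59, of which 51 were among the 90. Without replicate 2 of GAL-NMD2 it found 104, of which 67 were, and without replicate 1 of nmd2D 83, of which 60 were. With any other replicate left out, 66 to 74 of the 90 stayed in.

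A set of 94 probe sets that met the same rule except for a difference at 20 min above -0.5 served as the nearest comparison. Its median strain differences were -0.09, -0.01, -0.34, -0.96 and -1.20 at 0, 10, 20, 40 and 60 min, beside -0.17, -0.09, -0.65, -1.19 and -1.36 in the early members. At 40 min 69 of 94 of them were called lower, beside 74 of 90 early members, and the interaction was called in 31 of 94, beside 41 of 90. A place within 20 genes of a chromosome end was held by 16 of 91 of its genes (17.6%), beside 36.0% of the early member genes. These sets were separated by their values at 20 min, so no test of their difference was made.

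Genes of the decay pathway itself were read at 40 min from lists of known genes. Of 5 NMD factors, NMD4 and EBS1 were lower in GAL-NMD2 (log2 -1.71 and -0.57, limma adjusted p = 2.28e-09 and 0.0103) and NMD2 higher. NAM7 and UPF3 had -0.52 and 0.13 and were not called. With the block 3 of the 5 were lower, NAM7 among them, and 1 was higher. NMD4 and EBS1 had been left out of the members by name. Of 31 genes for deadenylation, decapping, 5′ to 3′ decay and the Ski complex, none was called in either direction by limma (median 0.07), and 2 were higher with the block. Of 8 genes of translation termination none was called (median 0.10), and 1 was lower with the block. Of 21 known NMD substrates, a list that holds NMD4 and EBS1 again, 10 were lower, PGA1 among them, and none higher (median -0.65). With the block 14 were lower. Over all probe sets tested 7.96% were called lower, and 15.8% with the block.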

How the data were processed

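RNA of 2 yeast strains at 5 times with 4 replicates each was measured on 40 Affymetrix arrays. The deposited signal intensities were made with MAS5, per the submitters' processing notes, which name no version. Per the labels' protocols, RNA was extracted with hot phenol. The deposited intensities are linear, and the mean of the middle 96% of values was 250.2 on each array, so each array carries a scaling to a common trimmed mean. The number of arrays limits the precision.

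Probe sets were named from the platform annotation: of 9335, 60 were controls, 6504 had 1 symbol, 328 several and 2443 none, and all 6504 symbols were found in the R64 gene table, the source of names and gene order. Values were taken as log2(intensity + 16), so folds of dim probe sets come out too small. A model of limma 3.58.1 under R 4.3.3 (lmFit, eBayes with trend) fitted 10 group means over 40 arrays, on 7420 probe sets left after dropping controls and levels below the 20th percentile. P-values were adjusted by Benjamini-Hochberg over all of them within a comparison and called under 0.05, 2-sided. They measure the spread within groups of replicates that the labels call biological. The 40 arrays entered as independent, although the times of a replicate number may come from the same culture. Any member may be named, and the genes of the lists, direct neighbours that are members and the 3 probe sets outside each threshold; others are said to be named after their values were seen. The members and lists were chosen with earlier results of these data known.

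Replicate numbers come from the labels. Same-numbered arrays of the 2 strains and times tested deviated together in 16 of 16 pairs (r = 0.321 to 0.731), so the replicate block is given where it changes a call. Alternatives were the pseudocount, the filter, centring, quantile normalization, the arrays in the fit, the block, limma without trend and each replicate left out. No arrays were identical, no sequence was used, and probe cross-hybridization was not examined.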

Additional observations from a re-analysis of the deposited data

Results flagged for a closer look

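Within groups of 4 arrays, the highest or lowest array was examined for a gap to the other 3 that was large against the range of the group. The 122 groups examined were only part of the groups of the members, and 10 met this. Chance alone gives about 1 in 20 for separate groups. Groups of the same gene share replicate numbers, so that rate does not judge this count. In OPT2, replicate 1 read 176.2 in GAL-NMD2 at 10 min (others 12.3 to 19.2), 163.7 in GAL-NMD2 at 40 min (others 28.2 to 34.7) and 118.4 in nmd2D at 10 min (others 15.3 to 21.9). In SPS4 replicate 1 read 275.2 in GAL-NMD2 at 10 min (others 23.8 to 43.5), 104.0 in GAL-NMD2 at 40 min (others 13.3 to 20.3) and 195.1 in nmd2D at 10 min (others 29.0 to 50.5). In both genes it was thus replicate 1 in both strains.

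GPX1 read 1187.1 in replicate 1 of nmd2D at 10 min (others 548.7 to 631.2). UBC12 read 65.8 in replicate 4 of GAL-NMD2 at 40 min (others 36.8 to 39.2). ALD3 read 241.1 in replicate 3 of GAL-NMD2 at 10 min (others 126.7 to 141.6). The median deviation of the 90 members was 0.0737 in replicate 2 of GAL-NMD2 at 0 min, above the other 3 arrays of its group.

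The change from 10 to 40 min differed between GAL-NMD2 and nmd2D, by a test of the difference itself, in 41 of the 90 members (limma interaction, adjusted p under 0.05), against 2.33% of all probe sets tested. The count was 17 after centring each array on its median and 78 with the replicate block, where 49 and 633 probe sets were called in all. It was 23 without replicate 2 of GAL-NMD2 or replicate 3 of nmd2D, with 81 and 76 in all.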

How the results depend on the processing

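The median log2 difference of the members kept its sign in all 5 comparisons under every alternative run. The balance of calls over all probe sets turned once: the change within GAL-NMD2 had 357 lower and 367 higher after centring, in place of 663 and 62. With a pseudocount of 1 and of 64 the median log2 difference of the members was -1.48 and -0.81 for the strains at 40 min, -1.36 and -0.74 for the interaction and -1.27 and -0.69 for the change within GAL-NMD2. With each array centred on its median these medians were -1.02, -0.88 and -0.88, and -1.06 for the strains at 40 min after quantile normalization. Centring gave 49 probe sets called for the interaction, with 17 members, and 5 for the change in nmd2D, with 1 member lower. Quantile normalization gave 75 for the interaction, with 22 members. Only the arrays of the groups compared gave 72 for the interaction, with 25 members, 427 for the change in GAL-NMD2 and 1 for that in nmd2D. The rule found 41 probe sets after centring and 51 after quantile normalization. The replicate block, which pairs the strains by number, gave 1419 probe sets called for the strains at 40 min, 9 at 10 min, 633 for the interaction with 78 members, 1679 for the change in GAL-NMD2 and 99 for that in nmd2D, with 1 member lower and 2 higher.

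Leaving out each replicate in turn gave, for the strains at 40 min, 477 to 613 probe sets, 68 to 76 members and medians of -1.23 to -1.10. At 10 min it gave 1 to 16, 0 members and -0.16 to -0.05. The interaction had 76 to 147, 23 to 37 members and -1.13 to -1.03, the change in GAL-NMD2 420 to 776, 57 to 70 and -1.12 to -1.02, and that in nmd2D 0 to 3, 0 and 0.01 to 0.08. The rule found 59 to 110 probe sets. The causes were not tested. How far dim probe sets such as GIP1 and HTL1 stood above background was not measured.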
